A study of Mus musculus with 32 samples.

Results

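The desmosomal cadherin and plaque genes Dsc1, Dsc2, Dsc3, Dsg2, Dsg3, Jup, Pkp1, Pkp2, Pkp3 and Dsp were examined in mouse parathyroid gland cells, 10 of the 35458 genes measured. The genes were chosen as components of 1 junction, and singled out among them was Dsc1, selected on its read counts in the mouse-host experiments. The other members were chosen by function, and the choice of Dsc1 set it against its relatives in those experiments. Differences of these genes among the mouse-host experiments are therefore a description. The reads of their 44 annotated transcripts were summed to genes. Each of 32 libraries came from 10 to 20 hand-picked cells that expressed tdTomato, a red fluorescent protein, and cDNA was made with the SMART-Seq HT kit. The labels name 4 biological replicates in each of 8 experiments and do not say how many animals gave the replicates of an experiment. Main p-values between arms rest on variation among experiment sums. Those between the control experiments, and in fits on single libraries, rest on variation among libraries, some of which may be technical.

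The rat-host experiment held cells from a neonatal Gcm2-/- Wistar rat, of unknown sex, that had been complemented with Pth-tdTomato mouse embryonic stem cells (ESCs). The graft experiment held grafted ESC-derived cells from male Gcm2-/- mice aged 12 weeks, on a BDF1B6 background and complemented with the same kind of ESCs. Mouse-host experiments 1 to 4 held ESC-derived cells from Gcm2-/- mice on that BDF1B6 background at 9 weeks, labelled female in experiments 1 to 3 and male in experiment 4. Control cells came from mice labelled C57BL/6-Pthtm1(P2A-tdTomato)/+, female at 11 weeks in control experiment 2 and male at 8 weeks in control experiment 1. The reporter sits in Pth, the parathyroid hormone gene, in all 8 experiments, and Gcm2 is the transcription factor gene that parathyroid development needs. The rat host and the graft are 1 experiment each. For the rat host the effects of species, age and experiment cannot be told apart, nor those of grafting, age and experiment for the graft. The graft is labelled male, and among the mouse hosts experiment 4 alone is, so sex is also in part joined to grafting. The fits of the rat host and the graft assume that each varies as the other experiments do.

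Desmosomes are spot-like junctions that hold epithelial cells together under mechanical load. Desmocollins (Dsc genes) and desmogleins (Dsg genes) are cadherins that bridge the gap between neighbouring cells. Inside the cell their tails bind plakoglobin (Jup) and plakophilins (Pkp genes), and desmoplakin (Dsp) ties that plaque to keratin filaments. Simple epithelia mostly use Dsc2 and Dsg2, whereas Dsc1, Dsc3, Dsg1, Dsg3 and Pkp1 are best known from stratified epithelia such as skin.

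The libraries held 29471254 to 32264864 reads each in control experiment 1 and 9470744 to 15098391 reads in the other 28. The parathyroid marker list (8 of 8 genes found in every experiment) summed to 158409 to 178274 CPM (counts per 1e6 reads, scaled to library size) in the rat-host libraries. The same sum was 258383 to 368421 CPM in the other 28 libraries. The cell-cycle list averaged 878 CPM in the rat host, against 40.7 to 263 CPM in the other 7 experiments. The thyroid C cell list averaged 3.82 CPM in the rat host, against 223 to 412 CPM in the other 7, and the fibroblast list 71.5 CPM, against 268 to 1322 CPM. Of the rat-host fibroblast sum Postn alone gave 68.0 CPM. The part of these differences in the rat-host values below was not tested. Of the squamous keratinocyte list, Krt14, Krt15, Krt4, Krt13, Krtdap and Lgals7 had no read in any library, and Krt5 had 7 reads, Trp63 11 reads and Calm4 1 read in all 32. The other 3 of the 12 genes were present, Krt10 with 4701 reads, Krt1 with 1817 and Sbsn with 1554.

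Parathyroid cells carried a simple-epithelial desmosome set plus, in some experiments, Dsc1. Dsc2, Dsg2, Jup, Pkp2, Pkp3 and Dsp had reads in all 32 libraries. Pkp1 had no read in any of the 32 libraries, which allows up to 0.00646 CPM (3 reads of 464153169, counting error only). Dsg3 had 5 reads in 2 libraries, and Dsc3 had 11 reads, all in rat-host replicate 4. These 3 genes failed the low-count filter, so 7 of the 10 genes entered the tests.

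Levels of different genes were compared as TPM, which corrects for transcript length, averaged over the 8 experiments. Pkp3 was the highest at 25.5 TPM. Dsc1 followed at 18.4 TPM and Jup at 17.7 TPM. Dsc2 stood at 9.03 TPM, Pkp2 at 7.95 TPM, Dsg2 at 7.06 TPM and Dsp at 2.36 TPM. The mean for Dsc1 is unlike the others because it joins experiments near 0 with experiments at 31.0 and 100.4 TPM. The keratins Krt8 and Krt18, which form the simple-epithelial filaments that desmosomes anchor, averaged 175 and 287 TPM.

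**Figure D1:**
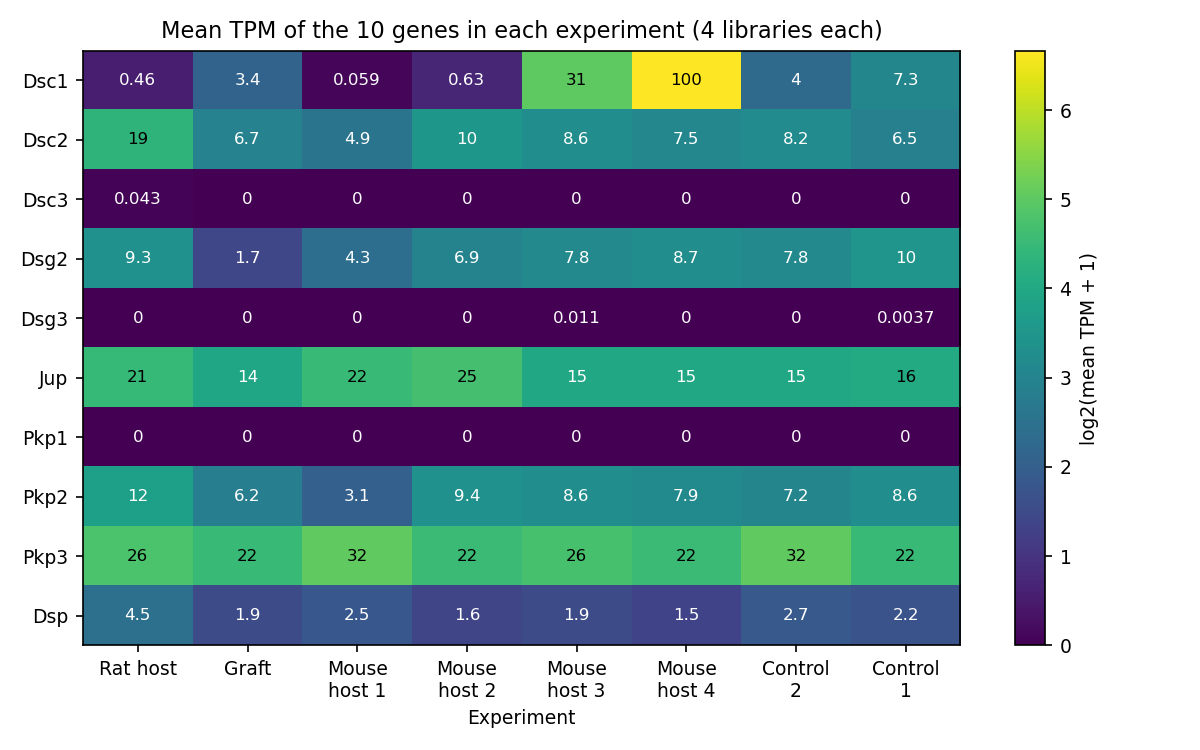
Mean TPM of the 10 genes (rows) in the 8 experiments (columns, 4 libraries each), with colour on a log2(mean TPM + 1) scale and the TPM printed in each cell. Dsc1 ranges from 0.0586 TPM in mouse-host experiment 1 to 100.4 TPM in mouse-host experiment 4, while Pkp3 stays between 21.7 and 32.1 TPM.

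Among the desmocollins, Dsc1 was nearly absent from some experiments and abundant in others. In the rat host Dsc1 had 0, 0.141, 2.20 and 0.337 CPM, and in the graft 0, 2.39, 8.21 and 1.93 CPM. In mouse-host experiment 1 it had 0.325, 0.197, 0.181 and 0.0813 CPM, from 8 reads in all, and in mouse-host experiment 2 it had 5.87, 0.160, 0.0764 and 0.103 CPM. Apart from replicate 1 of mouse-host experiment 2, every library of these 2 mouse-host experiments was under 1 CPM.

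In mouse-host experiment 3 Dsc1 had 47.0, 89.2, 122 and 101 CPM. In mouse-host experiment 4 it had 121, 207, 408 and 186 CPM. Native cells lay between, with 14.5, 9.27, 15.6 and 10.3 CPM in control experiment 2 and 11.6, 12.3, 13.1 and 5.53 CPM in control experiment 1. All 8 libraries of mouse-host experiments 3 and 4 were above all 8 control libraries, and 7 of the 8 libraries of experiments 1 and 2 were below all control libraries. These are the values by which the gene was singled out, so they are a description and carry no test.

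**Figure D2:**
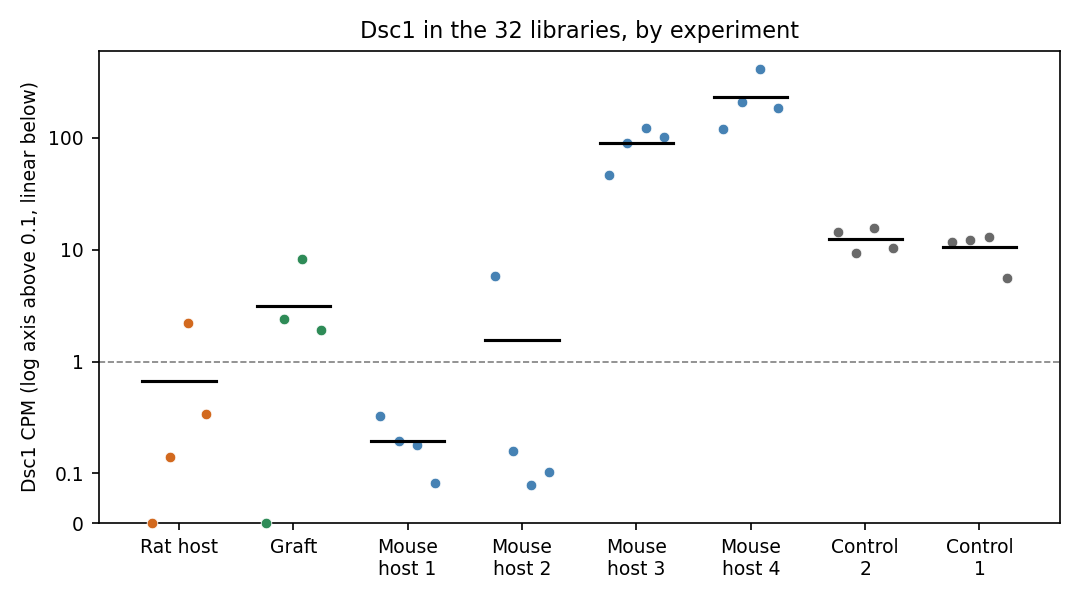
Dsc1 CPM in each library (points) by experiment, with the mean of 4 libraries as a black line, on an axis that is logarithmic above 0.1 CPM and linear below. The dashed line marks 1 CPM. Mouse-host experiments 3 and 4 sit at 47.0 CPM and above, and the controls between 5.53 and 15.6 CPM.

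The order of mean Dsc1 levels was mouse-host experiment 4 (231 ± 124 CPM, SD over 4 libraries here and below), mouse-host experiment 3 (89.8 ± 31.7 CPM), control experiment 2 (12.4 ± 3.11 CPM) and control experiment 1 (10.6 ± 3.45 CPM). The graft (3.13 ± 3.54 CPM), mouse-host experiment 2 (1.55 ± 2.88 CPM), the rat host (0.670 ± 1.03 CPM) and mouse-host experiment 1 (0.196 ± 0.0999 CPM) followed. Mouse-host experiment 3 and control experiment 2 were the neighbours in this order whose libraries did not overlap, and each other pair of neighbours overlapped. Without replicate 1, which held 73 of the 77 Dsc1 reads of mouse-host experiment 2, that experiment averaged 0.113 CPM. Without replicate 3 the rat host averaged 0.160 CPM.

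A library was counted as on at 1 CPM or more, and 21 of the 32 libraries were on. No library lay between 0.337 and 1.93 CPM, so the same 21 libraries were on at 0.5 CPM. By experiment, 1 of 4 libraries was on in the rat host, 3 of 4 in the graft, 0 of 4 in mouse-host experiment 1, 1 of 4 in mouse-host experiment 2, 4 of 4 in each of mouse-host experiments 3 and 4, and 8 of 8 in the controls. Experiments 1 to 3 are labelled female and experiment 4, the highest, male. All 4 mouse-host experiments carry the same age and strain labels. In pools of picked cells, fewer Dsc1-positive cells and less Dsc1 RNA per cell cannot be told apart.

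Dsc1 differed 1177-fold between the highest and the lowest mouse-host experiment mean, where the lowest rests on 8 reads (exact Poisson 95% interval 3.45 to 15.8 reads, counting error only). For the other 6 detected members the same ratio was 1.86 for Dsc2, 1.78 for Dsg2, 1.43 for Jup, 2.75 for Pkp2, 1.70 for Pkp3 and 1.73 for Dsp. The median was 1.70 over 6784 genes of 10 to 100 CPM with reads in every experiment, and the 95th percentile was 4.09. In that range lay 6805 genes in all, and those with no read in some experiment were not ranked. Of the 6784 genes 3 reached the Dsc1 ratio, Dsc1 included. Dsc1 was singled out by this difference, so its rank is a description and carries no test. The ratios of Dsc2 and Dsg2, its detected relatives, lay between that median and that percentile. The choice of Dsc1 set it against its relatives, so their ratios too are a description.

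Several marker lists averaged higher in mouse-host experiments 3 and 4, where Dsc1 was on, than in experiments 1 and 2. They were parathyroid, salivary gland, skeletal muscle, ciliated and airway epithelium, macrophage and pluripotent cell. Libraries of experiment 1 overlapped those of experiment 4 in each of them. The ciliated and airway list averaged 18.9 and 18.3 CPM in experiments 3 and 4, against 13.8 and 13.1 CPM in experiments 1 and 2. The macrophage list averaged 1.91 and 3.60 CPM, against 0.0226 and 0.978 CPM. The parathyroid list summed to 293391 to 345359 CPM in experiment 3 and 266069 to 364646 CPM in experiment 4, against 279033 to 304758 CPM in experiment 1 and 284783 to 328775 CPM in experiment 2. The keratinocyte list was at 14.5 to 18.4 CPM in experiment 3 and 7.63 to 25.1 CPM in experiment 4, against 12.8 to 17.5 CPM in experiment 1 and 10.0 to 25.5 CPM in experiment 2. For these 2 lists the libraries overlapped. Of the keratinocyte genes Krt10, Krt1 and Sbsn were found in experiments 3 and 4 (7.99, 5.17 and 3.54 CPM, and 8.82, 2.40 and 4.57 CPM), and the other 9 were at 0 there.

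The salivary gland list (7 genes) summed to 205 to 353 CPM in experiment 3 and 241 to 351 CPM in experiment 4, against 130 to 264 CPM in experiment 1 and 62.9 to 94.2 CPM in experiment 2. Aqp5 and Klk1b26 held nearly all of that sum, and Smr3a and Bpifa2 had no read in any library. The skeletal muscle list (6 genes) summed to 26.4 to 63.3 CPM in experiment 3 and 14.8 to 28.2 CPM in experiment 4, against 4.23 to 19.1 CPM in experiment 1 and 2.95 to 12.6 CPM in experiment 2. Its reads came from Myh1, Myh4 and Mylpf, while Acta1 and Tnnt3 had no read and Ckm had 1 in the 32 libraries. The fibroblast list averaged 509 CPM in experiment 3 and 335 CPM in experiment 4, against 361 CPM in experiment 1 and 980 CPM in experiment 2. Postn alone gave 504, 334 and 359 CPM in experiments 3, 4 and 1, with the collagen genes of the list near 0. In experiment 2 replicate 4 held 2740 CPM, and the other libraries 378, 386 and 415 CPM. The part of these lists in the Dsc1 difference was not tested.

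Dsc1 lies on chromosome 18 between Dsc2 and the Dsg1 genes, in the run of desmosomal cadherin genes from Dsc3 to Dsg2, by gene order in RefSeq (GRCm38.p6). Dsc2 next to it had 22.0 CPM in mouse-host experiment 1 and 32.2 CPM in experiment 4, while Dsc1 had 0.196 and 231 CPM there. Dsg1a had 1 read in the 32 libraries, and Dsg1b, Dsg1c and Dsg4 had none. Neither neighbour had the difference that Dsc1 had between these experiments.

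Because Dsc1 varied and Dsc2 did not to that extent, the makeup of the desmocollin pool differed between experiments. Dsc1 gave 91.8% ± 4.85 of the summed Dsc1 and Dsc2 TPM in mouse-host experiment 4 and 76.8% ± 9.47 in experiment 3. It gave 6.50% ± 12.2 in experiment 2 and 1.42% ± 0.885 in experiment 1. The share was 1.74% ± 2.82 in the rat host, 30.6% ± 20.9 in the graft, 32.1% ± 3.30 in control experiment 2 and 50.5% ± 13.7 in control experiment 1 (SD, n = 4 libraries each). The Dsc1 transcript of 663 bases weighed heavily in some of these shares. In the graft it took 41.9% of 144 Dsc1 reads but 87.3% of Dsc1 TPM. In control experiment 1 it took 18.1% of 1299 reads but 69.6% of TPM. In CPM, Dsc1 and Dsc2 stood at 3.13 and 34.3 in the graft and 10.6 and 30.4 in control experiment 1. They stood at 89.8 and 36.9 CPM in mouse-host experiment 3 and 231 and 32.2 CPM in experiment 4. The summed TPM of all members other than Dsc1 was 62.8 ± 17.5 in mouse-host experiment 4, 67.3 ± 15.1 in experiment 3, 75.5 ± 18.9 in experiment 2 and 68.5 ± 29.7 in experiment 1, which overlap.

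In mouse-host experiments 3 and 4 most Dsc1 reads went to Dsc1-201, a protein-coding transcript. Dsc1-201 took 61.3% of 10083 reads in mouse-host experiment 4 and 69.1% of 4728 reads in experiment 3, against none of the 77 reads in experiment 2. In native cells it took 21.6% of 591 reads in control experiment 2 and 41.1% of 1299 reads in control experiment 1. Dsc1-202, also protein coding, took 60.4% in control experiment 2, 32.8% in control experiment 1 and 89.5% of the 77 reads in mouse-host experiment 2. Salmon divides reads between overlapping transcripts by a model, so these shares carry that model's error, which was not tested here.

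Genes whose presence was most like that of Dsc1 were sought as those with the most of the 32 libraries on the same side of 1 CPM, among 12201 genes averaging at least 1 CPM. Crybg2 and Gm47355 matched in 27 libraries, Lypd3 and Rabl3 in 26 and Adam23 in 25, against a median of 21 for all candidates. A gene on in all 32 libraries also scores 21, because Dsc1 was on in 21. None had the range of Dsc1. Crybg2, the best match, had 1.38 CPM in mouse-host experiment 3 and 3.92 CPM in experiment 4, against 2.18 CPM in experiment 2 and 3.47 CPM in experiment 1. Adam23 had 15.4 CPM in experiment 3 and 9.40 CPM in experiment 4, against 4.94 CPM in experiment 2 and 6.42 CPM in experiment 1.

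Dsc2, the desmocollin of simple epithelia, was present in every library. It had 48.0, 51.9, 85.9 and 71.5 CPM in the rat host and 30.8, 43.0, 38.4 and 24.9 CPM in the graft. In the 16 mouse-host libraries it had a lowest value of 15.2, a median of 31.0 and a highest of 59.8 CPM. In native cells it had 42.4, 25.6, 38.4 and 43.6 CPM in control experiment 2 and 39.0, 30.3, 25.5 and 27.1 CPM in control experiment 1. The rat-host libraries were the high ones: 2 of 4 exceeded all 16 mouse-host libraries, and 2 of the 16 mouse-host libraries exceeded the lowest rat-host library.

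Over libraries of the rat host, Dsc2 averaged 64.3 ± 17.7 CPM (SD, n = 4), and over experiments of mouse hosts 33.04 ± 8.17 CPM (SD, n = 4). The log2 fold change was 1.01 (SE 0.32, 95% interval 0.27 to 1.76), and it did not pass edgeR's quasi-likelihood test (adjusted p = 0.271, n = 1 against 4 experiments). The difference was called where single libraries were taken as independent (adjusted p = 0.0232) and by limma voom with the experiment as a random effect (adjusted p = 0.00562). It was not called by DESeq2 on the experiment sums (adjusted p = 0.148). The rat-host libraries are also the ones whose parathyroid and C cell sums stood apart. Their cell-cycle sums averaged highest and their fibroblast sums lowest, with overlapping libraries. The cell-cycle sums ran from 135 to 1738 CPM in the rat host, and up to 650 CPM in mouse-host experiment 3. The fibroblast sums ran from 19.4 to 143 CPM in the rat host, and from 129 CPM upward in mouse-host experiment 1.

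Dsc2 in the graft differed from mouse hosts by 0.07 (log2, 95% interval -0.72 to 0.87), and mouse hosts from controls by -0.03 (-0.65 to 0.58). Control experiment 2 differed from control experiment 1 by 0.31 (-0.34 to 0.96). None of these passed the test (adjusted p = 0.961, 1 and 1 with edgeR). The intervals still hold differences of more than 1.5-fold in either direction for the graft.

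Reads of Dsc2 were unevenly divided between its transcripts by Salmon's model. Dsc2-201, protein coding, took 0, 14.0, 5.0 and 24.9% of Dsc2 reads in the rat-host libraries, against 60.9, 37.0, 59.2 and 100% in the graft. The range was 0 to 91.1% in the 16 mouse-host libraries. Dsc2-203, annotated as subject to nonsense-mediated decay, had no read in any of the 4 graft libraries, out of 1680 Dsc2 reads. It took 23.5 to 41.3% in the 4 rat-host libraries, and in mouse hosts it ranged from 0 to 59.6%. Of all 32 libraries 10 gave it no read, the 4 graft libraries among them, and these shares were not tested.

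Dsg2, the desmoglein of simple epithelia, had its lowest experiment mean in the graft. It had 9.56, 7.10, 7.01 and 22.2 CPM in the graft and 35.4, 38.6, 31.6 and 50.4 CPM in the rat host. In mouse hosts it had 25.3, 7.48, 42.2 and 29.8 CPM in experiment 1, 44.5, 27.4, 32.2 and 50.9 CPM in experiment 2, 55.0, 33.3, 55.1 and 42.8 CPM in experiment 3, and 33.9, 38.6, 40.9 and 29.1 CPM in experiment 4. Control libraries ranged from 19.4 to 51.7 CPM. Every graft library but replicate 4 was under 10 CPM, and 1 of the 16 mouse-host libraries was below the highest graft library.

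Dsg2 averaged 11.5 ± 7.23 CPM in the graft (SD, 4 libraries) and 36.8 ± 8.43 CPM in mouse hosts (SD, 4 experiments). The log2 fold change was -1.70 (SE 0.37, 95% interval -2.55 to -0.84). It did not pass edgeR's test after adjustment over all genes (adjusted p = 0.134). DESeq2 on the same sums called it (adjusted p = 0.00074), as did the fit on single libraries (adjusted p = 0.00451). Without graft replicate 4 the graft averaged 7.89 CPM and the log2 fold change was -2.20 (edgeR, adjusted p = 0.0601). The salivary gland list averaged 950 CPM in the graft, against 79.7 to 288 CPM in the mouse-host experiments, most of it Klk1b26 at 636 CPM and Aqp5 at 312 CPM. The ciliated and airway list averaged 38.2 CPM, against 13.1 to 18.9 CPM, nearly all of it Ccdc39 at 37.2 CPM in the graft. The part of these lists in the Dsg2 difference was not tested.

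In the other comparisons Dsg2 was close to even. The rat host differed from mouse hosts by 0.15 (log2, 95% interval -0.60 to 0.90) and mouse hosts from controls by 0.00 (-0.58 to 0.59). The order of its means was mouse-host experiment 3 (46.5 CPM), the rat host (39.0 CPM), mouse-host experiment 2 (38.8 CPM), control experiment 2 (37.0 CPM), control experiment 1 (36.7 CPM), mouse-host experiment 4 (35.6 CPM), mouse-host experiment 1 (26.2 CPM) and the graft (11.5 CPM). The libraries of each pair of neighbours in that order overlapped.

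**Figure D3:**
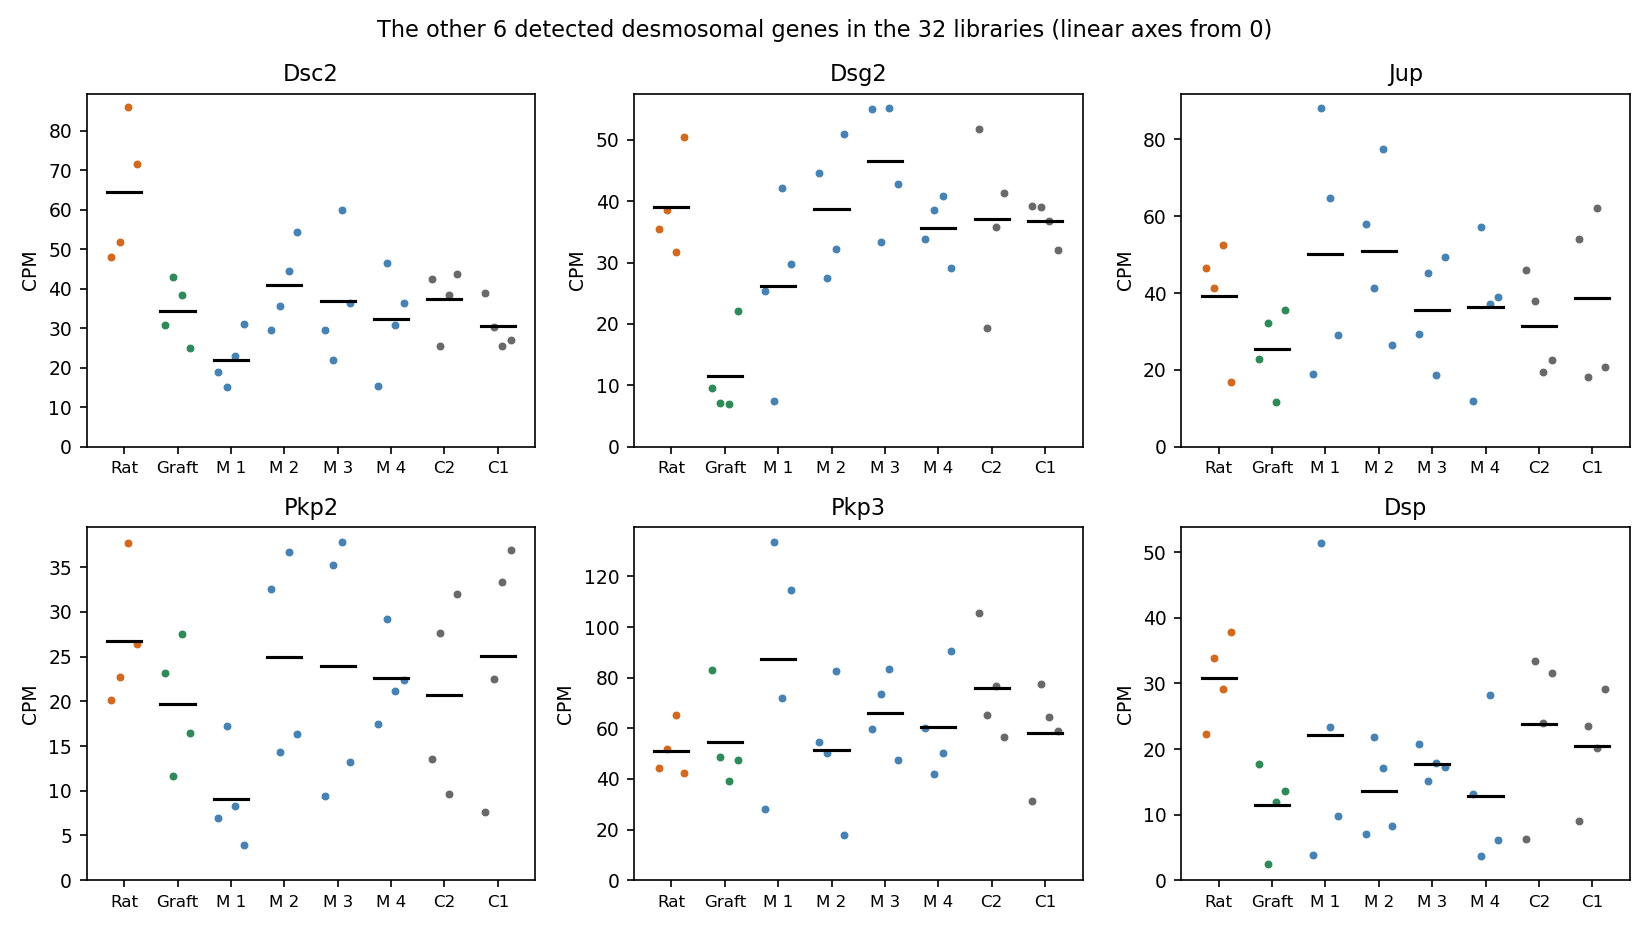
CPM of Dsc2, Dsg2, Jup, Pkp2, Pkp3 and Dsp in each library (points) by experiment, with the mean of 4 libraries as a black line and linear axes from 0 (M, mouse host; C, control). The rat-host points for Dsc2 lie at 48.0 CPM and above, and 3 of the 4 graft points for Dsg2 lie under 10 CPM.

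Plakoglobin, encoded by Jup on chromosome 11, also serves in adherens junctions. Jup ranged from 16.9 to 52.6 CPM in the rat host, 11.6 to 35.6 CPM in the graft, 12.0 to 88.1 CPM in mouse hosts and 18.1 to 62.2 CPM in controls. All arms overlapped. The lowest mean was that of the graft at 25.5 ± 10.7 CPM, against 43.3 ± 8.40 CPM in mouse hosts, a log2 fold change of -0.75 (95% interval -1.53 to 0.02; edgeR, adjusted p = 0.42). Mouse hosts differed from controls by 0.33 (-0.25 to 0.91) and the rat host from mouse hosts by -0.13 (-0.87 to 0.62).

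Of the plakophilins, which link cadherin tails to desmoplakin, Pkp3 on chromosome 7 was the most abundant and the most even. Pkp3 ranged from 42.3 to 65.2 CPM in the rat host, 39.4 to 82.9 CPM in the graft, 17.9 to 134 CPM in mouse hosts and 31.3 to 105 CPM in controls. Its 8 experiment means spanned 1.71-fold. The log2 fold change was -0.36 in the rat host and -0.28 in the graft against mouse hosts, and 0.01 in mouse hosts against controls (edgeR, adjusted p = 0.749, 0.725 and 1).

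Pkp2 on chromosome 16, the plakophilin of simple epithelia and heart, was lowest in mouse-host experiment 1. It had 6.92, 17.2, 8.31 and 3.90 CPM there, against 9.41 to 37.8 CPM in mouse-host experiments 2 to 4. In the rat host it ranged from 20.2 to 37.7 CPM, in the graft from 11.7 to 27.6 CPM and in controls from 7.67 to 36.9 CPM. Its log2 fold changes were 0.45 in the rat host (95% interval -0.76 to 1.67) and -0.06 in the graft (-1.32 to 1.20) against mouse hosts, and -0.19 in mouse hosts against controls (-1.16 to 0.77). These intervals were the widest among the 6 tested members, and each holds a 2-fold difference in at least 1 direction.

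Desmoplakin is made in a long and a short form from 1 gene by use of alternative splice sites in exon 23, and the short form lacks most of the central rod. The annotation holds both, Dsp-201 (9592 bases) and Dsp-202 (7761 bases), on chromosome 13. Their sequences part at the end of the shared stretch of exon 23 (GRCm38, plus strand, chr13:38191361-38191858 in Dsp-202), after which Dsp-201 goes on for 1797 more bases to 38193655. They are shown because the share of reads given to each form varied widely between libraries. Lower case is the last 40 shared bases and capitals are the 40 bases that follow, from exon 23 in Dsp-201 and from exon 24 in Dsp-202 (GENCODE M21).
Dsp-201: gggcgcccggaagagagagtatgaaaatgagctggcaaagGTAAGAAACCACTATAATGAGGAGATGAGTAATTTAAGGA
Dsp-202: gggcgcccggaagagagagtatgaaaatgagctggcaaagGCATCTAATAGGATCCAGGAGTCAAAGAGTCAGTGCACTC

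The long form Dsp-201 took 33.8% of the 9016 Dsp reads in all libraries and the short form Dsp-202 took 66.1%. Between libraries of 1 experiment the share of Dsp-201 went to both extremes. It was 0, 0, 0 and 100% in the graft, 1.23, 100, 100 and 1.20% in mouse-host experiment 3, and 100, 35.6, 51.9 and 0.826% in control experiment 2. It was 14.9, 65.4, 21.1 and 32.1% in the rat host, where both forms were given reads in every library. In all, 10 libraries gave Dsp-201 no read and 4 gave it every read, and a library had as few as 34 Dsp reads. Salmon divides reads between overlapping transcripts by a model, so these shares carry that model's error. Whether splicing differed between libraries was not tested.

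**Figure D4:**
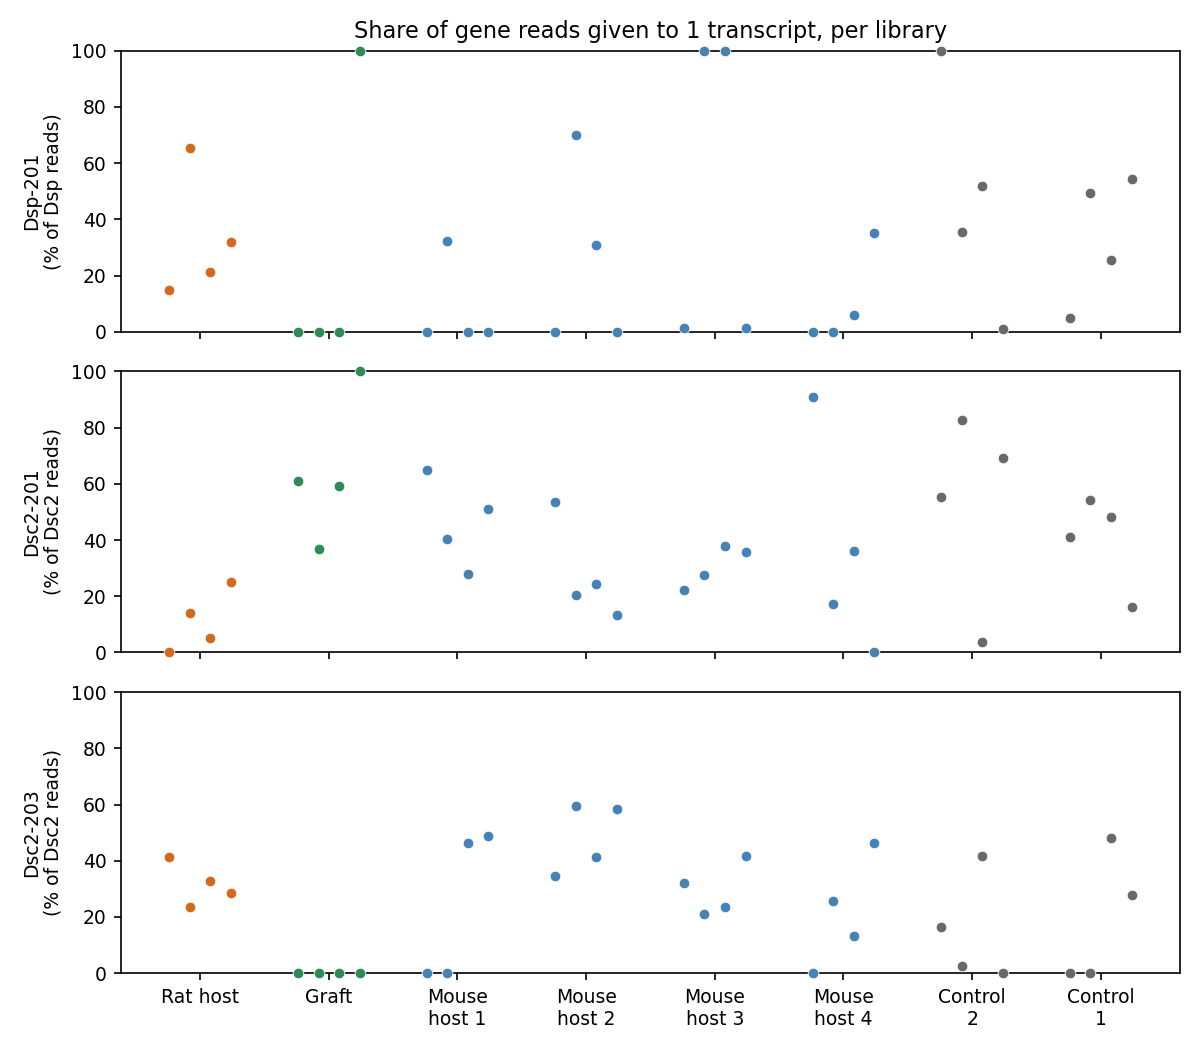
Share of gene reads given to Dsp-201, Dsc2-201 and Dsc2-203 in each library (points), by experiment, in percent of the reads of that gene. Dsp-201 lies at 0 or 100% in many libraries, Dsc2-201 lies under 25% in the rat host, and Dsc2-203 lies at 0 in all 4 graft libraries.

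Dsp as a whole had 22.2, 33.9, 29.2 and 37.9 CPM in the rat host and 17.8, 2.46, 11.9 and 13.5 CPM in the graft. It ranged from 3.76 to 51.4 CPM in the 16 mouse-host libraries and from 6.23 to 33.5 CPM in controls. Of the 16 mouse-host libraries 3 exceeded the lowest rat-host library. The mean was 30.8 ± 6.72 CPM in the rat host against 16.5 ± 4.29 CPM in mouse hosts, a log2 fold change of 0.95 (SE 0.39, 95% interval 0.06 to 1.84). It did not pass the test (edgeR, adjusted p = 0.396). The log2 fold change was -0.57 in the graft against mouse hosts (95% interval -1.55 to 0.42) and -0.44 in mouse hosts against controls (-1.16 to 0.28).

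Replicate spread differed between members. The coefficient of variation within an experiment had a median of 0.253 for Dsg2 and 0.270 for Dsc2. It was 0.344 for Pkp3, 0.427 for Jup, 0.486 for Pkp2, 0.522 for Dsp and 0.524 for Dsc1. The median over the 6784 genes of 10 to 100 CPM was 0.379, with quartiles of 0.284 and 0.510. The cadherins Dsg2 and Dsc2 were thus at or below the lower quartile, and Dsp and Dsc1 above the upper one.

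None of the 6 tested members was called at an adjusted p below 0.05 in edgeR in any of the 4 comparisons. In the rat host against mouse hosts 0 of 6 were called, where 0.643% of 15698 genes were. An unadjusted p under 0.05 was found for 2 of 6 (Dsc2 and Dsp) and for 11.6% of all genes. DESeq2 called 0 of the 6 and 5.54% of genes, limma voom 1 (Dsc2) and 7.94%, and edgeR on single libraries 1 (Dsc2) and 5.91%.

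In the graft against mouse hosts 0 of 6 were called, with 0.115% of genes called. An unadjusted p under 0.05 was found for 1 of 6 (Dsg2) and for 12.4% of all genes, which is near the members' share. DESeq2 called 1 of the 6 (Dsg2) and 6.38% of genes, limma voom 0 and 2.41%, and edgeR on single libraries 1 (Dsg2) and 3.63%. In mouse hosts against controls 0 of 6 were called, with 0% of genes called, and none had an unadjusted p under 0.05, where 4.40% of genes did. In control experiment 2 against control experiment 1, with 4 libraries each, 0 of 6 were called, with 0.0173% of 11544 genes called, and none had an unadjusted p under 0.05, where 5.39% of genes did.

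The median log2 fold change of the 6 members was 0.30 in the rat host and -0.43 in the graft against mouse hosts, where all genes tested had medians of -0.03 and -0.09. In mouse hosts against controls it was -0.01, with 0.00 for all genes. Total-count scaling moved the all-gene median in the rat host to 0.13, and Dsc2 then had a log2 fold change of 1.21. Both comparisons with mouse hosts share those 16 libraries, so their fold changes are not independent.

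**Figure D5:**
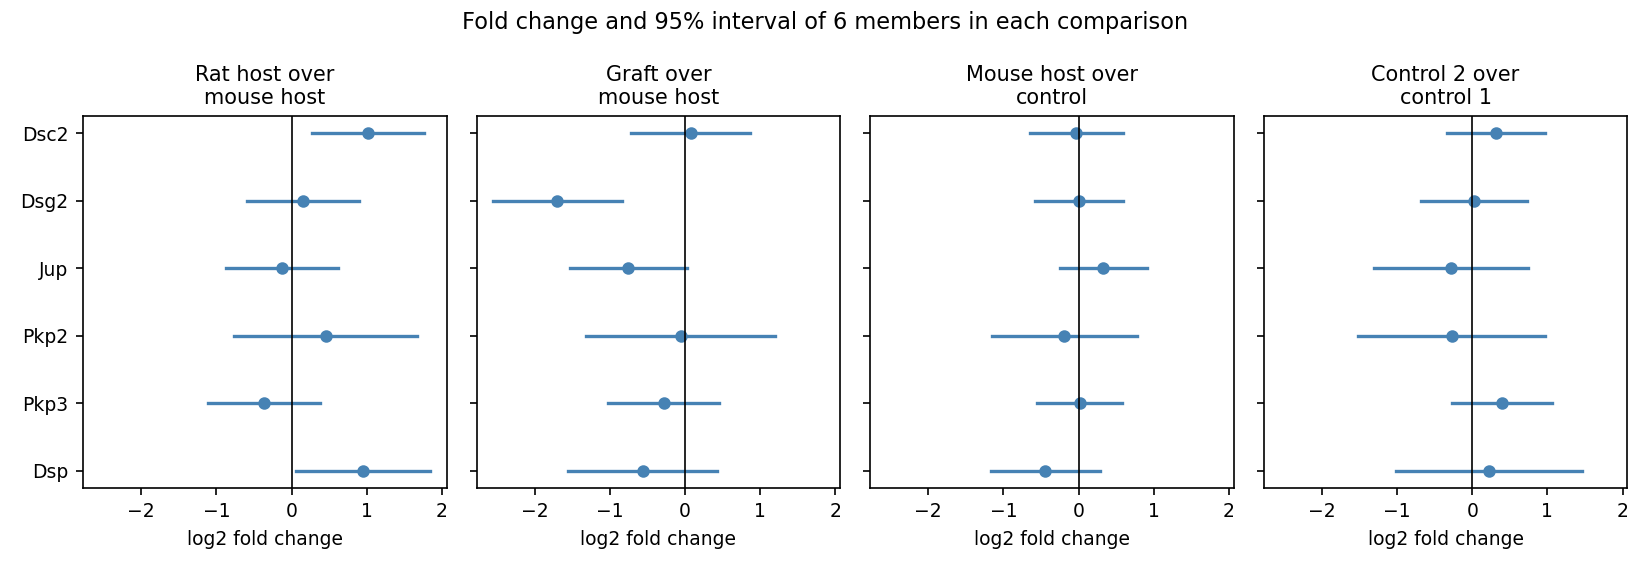
Log2 fold change (points) and 95% interval (lines) of 6 members in 4 comparisons, from the edgeR fit. The intervals of Dsc2 (0.27 to 1.76) and Dsp (0.06 to 1.84) in the rat host and of Dsg2 (-2.55 to -0.84) in the graft leave out 0, and none of these passed after adjustment over all genes.

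Genes of neighbouring structures were read from the same edgeR fits, and not with the other tools. Counts at an unadjusted p under 0.05 are to be read against the 11.6% of all genes in the rat host, 12.4% in the graft and 4.40% in mouse hosts against controls. Of 9 desmosome partners 4 were tested and 0 were called, with 1 at an unadjusted p under 0.05 in the rat host, 2 in the graft and 0 in mouse hosts against controls. Their median log2 fold changes were -0.39, -1.67 and 0.21 in those comparisons, beside -0.03, -0.09 and 0.00 for all genes. The most abundant were Perp, a membrane protein of desmosomes, at 48.9 TPM and Ppl, the plaque protein periplakin, at 2.58 TPM.

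Of 16 keratin and vimentin genes 7 were tested and 0 called, with 0, 1 and 0 at an unadjusted p under 0.05 and medians of -0.28, 0.28 and -0.35. Krt8 differed by 0.04 in the rat host and 0.36 in the graft against mouse hosts (log2). Of 16 adherens junction genes 14 were tested and 0 called, with 3 of 14 at an unadjusted p under 0.05 in each comparison and medians of 0.63, -0.28 and 0.39. Ctnnb1 (beta-catenin) averaged 68.9 TPM and Ctnna1 (alpha-catenin) 38.1 TPM.

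All 15 tight junction genes were tested, and 1 was called, in the rat host. Cldn4, a claudin, averaged 89.9 CPM in the rat host, against mouse-host experiment means of 4.37 to 11.9 CPM, a log2 fold change of 3.58 (SE 0.55; edgeR, adjusted p = 0.0411). The medians of the list were 0.22 in the rat host, 0.00 in the graft and 0.12 in mouse hosts. The epithelial adhesion gene Epcam averaged 893 TPM and Cldn7, another claudin, 303 TPM, and neither was called. Of the 15 genes 4, 3 and 1 had an unadjusted p under 0.05 in these comparisons.

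Of 9 hemidesmosome genes 6 were tested and 0 called, with 2, 3 and 0 at an unadjusted p under 0.05 and medians of 0.13, -0.16 and -0.38. Cd151, a tetraspanin, averaged 50.1 TPM and Itga6, the integrin alpha-6 gene, 12.4 TPM. Of 17 epithelial transcription factor genes 15 were tested and 0 called, with 1, 1 and 2 at an unadjusted p under 0.05 and medians of -0.33, -1.31 and 0.34. Elf3 averaged 6.16 TPM and Grhl2 5.78 TPM.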

How the data were processed

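Per the submitters' processing notes, the authors ran Salmon and named GRCm39 as genome build. The version of Salmon and its annotation: not given in the sources used here. Per the file headers, the deposited tables hold an expected count and a TPM for every transcript. GENCODE M21 gave a gene for 115685 of 116747 transcripts. The other 1062, with 0.493% of reads, were left out. Gene sums of the expected counts were rounded. None of the 48 library pairs within experiments agreed within sampling noise, so every library was kept.

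For comparisons between arms, libraries were summed by experiment, and 1 edgeR 4.0.16 model (R 4.3.3) held all arms. It used TMM, the default filter on low counts, quasi-likelihood tests and Benjamini-Hochberg adjustment across the genes tested. Control experiments were compared library by library. CPM used TMM-adjusted library sizes, and fold-change intervals used the fitted SE. DESeq2 1.42.0 and limma 3.58.1 gave alternatives. On simulated data, only the edgeR fit of experiment sums was tried, for the rat host against mouse hosts. Members, lists and tests were chosen with earlier results of these data known. The text names all 10 members, the 2 highest by TPM and any called gene of each list, and the 5 genes most like Dsc1, and Dsc1 carries no test. Whether counting used strand is not stated, so reads of overlapping antisense genes cannot be told apart. All intervals and floors of counts cover counting error only.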

Additional observations from a re-analysis of the deposited data

Results flagged for a closer look

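A library was looked at again where its gap to the nearest of the other 3 libraries of its experiment was over Dixon's limit. Of 59 gene and experiment combinations tested 6 were flagged. Chance flags about 1 in 20 for normally distributed values, a rate that does not hold for counts near 0, so 6 of 59 cannot be set against it. Dsc1 had 5.87 CPM in replicate 1 of mouse-host experiment 2, against 0.0764 to 0.160 CPM in the other 3. Dsc1 had 2.20 CPM in rat-host replicate 3, against 0 to 0.337 CPM. Dsg2 had 22.2 CPM in graft replicate 4, against 7.01 to 9.56 CPM.

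The other flags rest on a few reads, each in 1 library where the other 3 had none, a pattern that is flagged at any count. Dsc3 had 0.742 CPM in rat-host replicate 4. Dsg3 had 0.154 CPM in replicate 2 of mouse-host experiment 3 and 0.0961 CPM in replicate 3 of control experiment 1.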

How the results depend on the processing

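Of 930 alternative values of 24 member fold changes 857 kept their direction, and 6 passed the threshold. In the rat host 1 member, Dsc2, was called on single libraries, with limma voom and with a replicate block on single libraries (adjusted p = 0.0232, 0.00562 and 0.0244). In the graft 1 member, Dsg2, was called by DESeq2, on single libraries and with the replicate block (adjusted p = 0.00074, 0.00451 and 0.00375). Same-numbered libraries of different experiments did not deviate together (correlations -0.125 to 0.08 over 112 pairs, median -0.0064), so the numbers do not pair samples. All 56 levels by experiment stayed within 1 SD when scaled on total reads.

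The values that turned their sign were as follows, and the cause was not tested. On log2(TPM + 1) and log2(TPM + 0.1), mouse hosts against controls gave 0.0502 and 0.0515 for Dsc2, -0.349 and -0.394 for Dsg2, and -0.0593 and -0.0610 for Pkp3. The rat host against mouse hosts gave 0.175 and 0.184 for Jup, and 0.0597 and 0.0623 for Pkp3. The graft against mouse hosts gave -0.161 and -0.176 for Dsc2, and on log2(TPM + 0.1) 0.000281 for Dsp. Control experiment 2 against 1 gave -0.287 for Dsg2 on log2(TPM + 1). Jup in the rat host was 0.0722 with total-count scaling. In mouse hosts against controls, Dsg2 was -0.00342 and Pkp3 -0.0151 on single libraries, and Dsg2 was -0.0480 with limma voom. Pkp2 in the graft was 0.0776 with limma voom. The replicate block gave -0.0100 for Dsg2 and -0.0199 for Pkp3 in mouse hosts, 0.0127 for Pkp2 in the graft, and -0.0498 for Dsg2 between the control experiments.

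Leaving out 1 library or experiment gave ranges that crossed 0 for these members. In mouse hosts against controls they were -0.164 to 0.114 for Dsc2, -0.128 to 0.127 for Dsg2, -0.361 to 0.0526 for Pkp2 and -0.156 to 0.199 for Pkp3. In the rat host they were -0.00936 to 0.281 for Dsg2 and -0.304 to 0.134 for Jup. In the graft they were -0.0909 to 0.196 for Dsc2 and -0.303 to 0.135 for Pkp2. Between the control experiments they were -0.181 to 0.232 for Dsg2, -0.0260 to 0.543 for Dsp and -0.523 to 0.0465 for Jup.

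The leading transcript's share of TPM was 80.8% for Dsg2-201, 35.9% for Jup-201 and 89.0% for Pkp3-201, against 95.9, 52.2 and 97.5% of reads. Over all genes, mouse hosts against controls gave 135 calls with DESeq2 and 42 with limma voom, against 0. The rat host gave 870 and 1043, against 101, and 12 to 127 when 1 library or experiment was left out. The graft gave 1001 and 316, against 18, and 0 to 77 when 1 was left out. DESeq2 gave 125 calls between the control experiments, against 2. With total-count scaling the rat host had 115 genes called higher and 70 lower, against 34 and 67. Pools of 10 to 20 cells and single experiments for the rat host and the graft limit the precision of every fold change.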

Other observations

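Among the listed genes, 3 were picked out after their values were seen. Cdh3, which encodes P-cadherin, averaged 75.9 CPM in the rat host, against mouse-host experiment means of 0 to 1.47 CPM, and its log2 fold change of 7.60 (SE 1.57) had an adjusted p = 0.0961 in edgeR. Pkp4, a relative of the plakophilins, averaged 0.0582 CPM in the graft and 1.52 to 10.0 CPM in the mouse-host experiments (log2 fold change -6.55, SE 1.57; edgeR, adjusted p = 0.17). Grhl1, a grainyhead-like transcription factor of epithelia, averaged 0.139 CPM in the graft and 3.07 to 9.92 CPM in the mouse-host experiments (log2 fold change -5.19, SE 1.30; edgeR, adjusted p = 0.186). None of the 3 was called.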
